A study of Homo sapiens with 4 samples.

Results

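CHD7, EP400 and MED13L are genes for large chromatin proteins, and the contacts of their RNAs with enhancers and promoters were followed in K562 cells with and without a truncating change in RUNX1. The members were the RNAs that carry these symbols in the deposited table of RNA and element connections. They are 3 of 2637 RNAs and account for 198 of 115357 connections: 47 of CHD7, 46 of EP400 and 105 of MED13L. The method was GRID-seq, which ligates an RNA to the DNA lying beside it in fixed nuclei, so each molecule read names an RNA and a genomic position.

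The tested cells were K562 labelled RUNX1 R320* (R320*) and the comparison cells were K562 labelled WT, with 2 libraries each and 4 in all. K562 is a human leukaemia line that carries the BCR-ABL1 fusion, so both groups carry it. Fixation was the same in both, 2 mM DSG (45 minutes) followed by 3% formaldehyde (10 minutes). The labels give neither the way the stop codon was introduced, nor the number of clones, nor whether the libraries of a genotype were separate cultures.

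CHD7 is a chromodomain helicase that slides nucleosomes with energy from ATP and is found at many enhancers; in mouse blood cells its protein has been reported to bind RUNX1. EP400, or p400, is the ATPase of the TIP60 acetyltransferase complex and exchanges histone variants at promoters. MED13L belongs to the kinase module of Mediator, the complex that links enhancer-bound factors to RNA polymerase II, and is the paralogue of MED13. The values below concern the place of their RNAs on chromatin, not the place of the proteins.

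The deposited table holds 1 score per genotype, so no difference below has a replicate spread or a test, and an SD describes the spread over connections. A score was either 0 or above 1.2, and 0 connections were at 0 in both genotypes; a 0 is therefore called not listed. The table held 84992 connections in R320* and 82454 in WT, with median scores of 1.73 and 1.71, and sequencing depth is unknown. Fewer cells with a contact, less RNA per cell and a weaker contact cannot be told apart in these pooled values, and neither can genotype and library pool. Of 12 RNAs looked for as markers of K562, 8 were listed, among them the globin RNAs HBG2 and HBE1 and BCR and ABL1. HBG1, HBZ, GATA1 and TAL1 were looked for and not listed. Of 8 markers of other blood lineages, 0 were listed. A marker that is not listed may still be present in the cells.

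The start regions of EP400 and MED13L are shown because the promoter element that contains each of them was not listed with the gene's own RNA in R320* but was met by it in WT. They are the RefSeq promoters on GRCh38.p14, from 250 bases before the start to 50 after it, at chr12:131949692-131949991 (plus strand) and chr12:116277644-116277943 (minus strand). Capitals mark matches to 4 short motifs searched on both strands, the letters TGTGGT for a RUNX core, GATAAG for a GATA motif, CCGGAAG for an ETS motif, and the CCAAT box. No motif overlapped another.
EP400: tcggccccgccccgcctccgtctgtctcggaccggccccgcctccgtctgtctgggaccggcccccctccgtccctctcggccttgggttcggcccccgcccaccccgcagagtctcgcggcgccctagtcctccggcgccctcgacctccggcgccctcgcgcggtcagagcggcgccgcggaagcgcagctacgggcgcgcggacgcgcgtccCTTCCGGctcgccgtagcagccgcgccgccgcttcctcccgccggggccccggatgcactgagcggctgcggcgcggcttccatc
MED13L: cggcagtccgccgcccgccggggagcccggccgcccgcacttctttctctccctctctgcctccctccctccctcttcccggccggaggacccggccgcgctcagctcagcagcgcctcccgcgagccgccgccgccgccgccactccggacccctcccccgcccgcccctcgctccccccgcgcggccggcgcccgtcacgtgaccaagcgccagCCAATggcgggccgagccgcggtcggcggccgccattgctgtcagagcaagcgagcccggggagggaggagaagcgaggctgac
EP400 held 1 ETS match, on the opposite strand, and MED13L 1 CCAAT box. The RUNX and GATA letters had 0 matches in either window. Of 35116 RefSeq promoters of the same length, 13.1% held the RUNX letters, 6.36% the GATA letters, 10.3% the ETS letters and 34.6% the CCAAT letters. Both windows were rich in G and C, at 79.0% for EP400 and 78.3% for MED13L, against a median of 58.7% over all promoters. They held 51 and 43 CG dinucleotides, against a median of 14.

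CHD7 RNA had more listed connections in R320*, EP400 RNA fewer, and MED13L RNA fewer. CHD7 had 46 connections in R320* and 29 in WT, a log2 ratio of 0.67, with 28 of them in both. EP400 had 17 in R320* and 41 in WT, a log2 ratio of -1.27, with 12 in both. MED13L had 61 in R320* and 86 in WT, a log2 ratio of -0.50, with 42 in both. EP400 was the only member past a 2-fold difference, and this call depends on what is counted. With elements within 1 Mb merged into regions, CHD7 (1.81) and MED13L (-1.07) were past 2-fold too, and with promoters alone EP400 (-0.58, from 8 in R320* and 12 in WT) was not. Among the 1293 RNAs with a mean of at least 25 connections that were listed in both genotypes, 0.619% were at least 2-fold lower in R320* and 0.619% at least 2-fold higher. More connections in R320* were seen for 58.5% of these RNAs and fewer for 36.4%, so the direction of CHD7 is the common one. By this ratio EP400 was in place 4 from the lowest of the 1293, MED13L in place 52 from the lowest and CHD7 in place 51 from the highest. RNAs listed in 1 genotype alone, 227 in R320* and 273 in WT over all sizes, have no ratio. They are in neither these shares nor these places, though some are complete losses or gains.

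**Figure D1:**
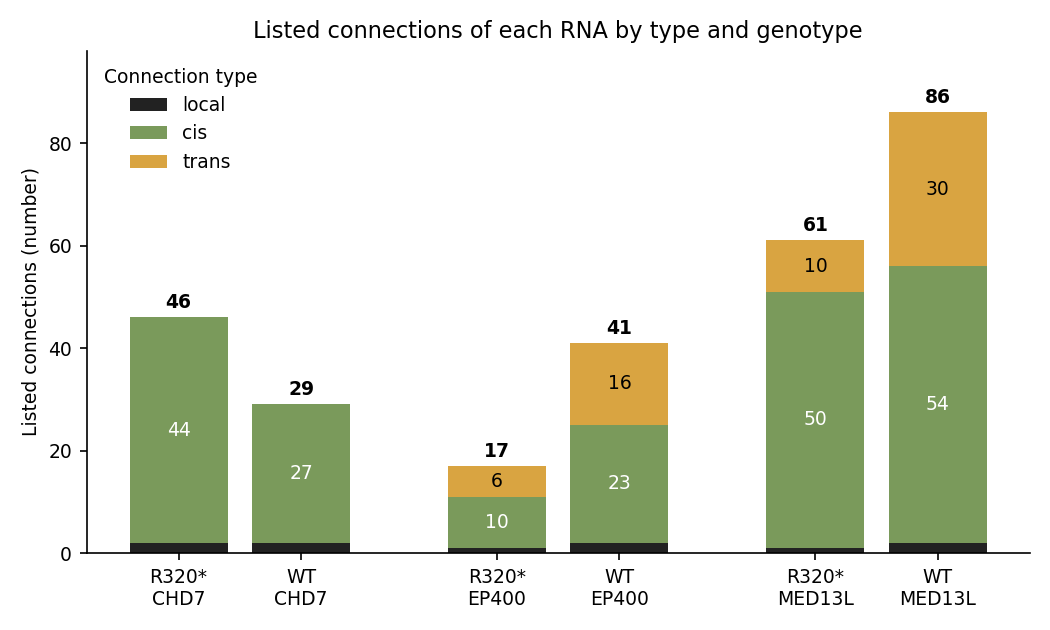
Number of listed connections (vertical axis) of CHD7, EP400 and MED13L RNA in R320* and WT, stacked by type: local, cis (same chromosome) and trans (another chromosome). CHD7 had 0 trans connections in either genotype, and the trans part was 6 in R320* and 16 in WT for EP400 and 10 and 30 for MED13L.

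The chromosome of the gene goes with these directions. EP400 and MED13L lie on chromosome 12. There 29 of 34 RNAs that passed the minimum and were listed in both genotypes (85.3%) had fewer connections in R320*. Their median log2 ratio was -0.22, with quartiles of -0.47 and -0.11. EP400 had the lowest ratio of the 34 and MED13L was in place 9 from the lowest. CHD7 lies on chromosome 8, where 44 of 63 such RNAs (69.8%) had more in R320*. The median there was 0.18, with quartiles of 0.00 and 0.35, and CHD7 was in place 4 from the highest. These counts hold the members themselves and leave out RNAs listed in 1 genotype alone, which have no ratio. SPPL3 of chromosome 12, with 0 connections in R320* and 53 in WT, is left out in this way. Whole RNAs of chromosome 12 were also missing from the R320* list: of its 132 RNAs, 3 were listed in R320* only and 70 in WT only, against 13 and 5 of 127 on chromosome 8. The part that the chromosome has in the values of EP400 and MED13L was not tested. For centring, the median of a chromosome was taken over all its RNAs listed in both genotypes, with no minimum. It was -0.17 for chromosome 12 and 0.17 for chromosome 8. Centred on these, the ratios were -1.10 for EP400, -0.33 for MED13L and 0.50 for CHD7.

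**Figure D2:**
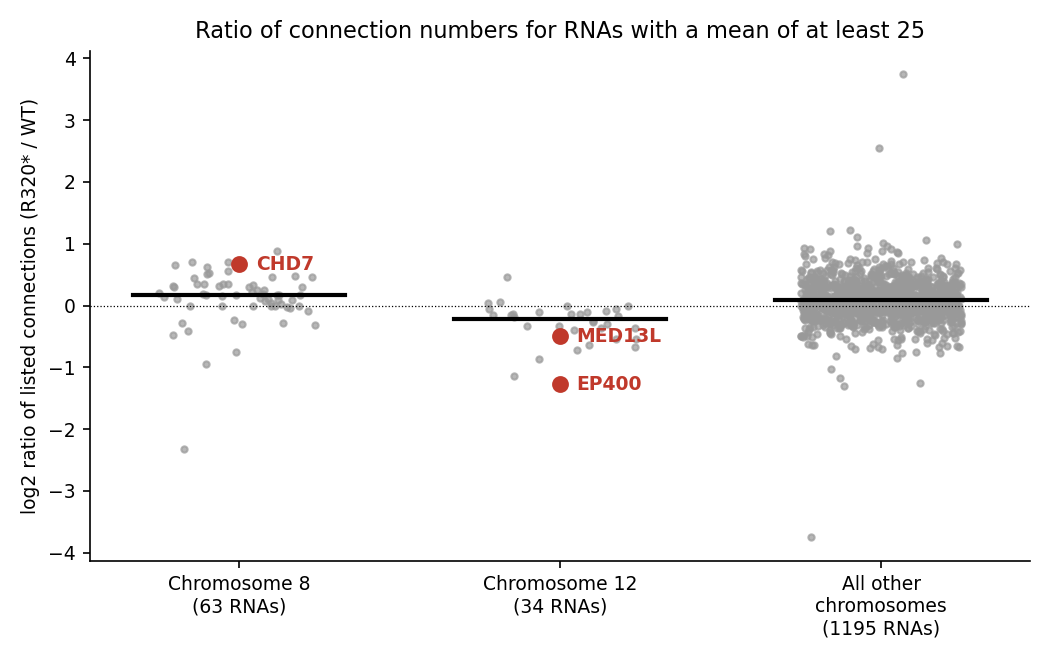
Log2 ratio of listed connections, R320* over WT (vertical axis), for RNAs of chromosome 8, chromosome 12 and all other chromosomes. The RNAs shown were listed in both genotypes with a mean of at least 25 connections. Grey points are RNAs, black bars are medians and the members are in red. The median lies at 0.18 on chromosome 8 and at -0.22 on chromosome 12, with EP400 at the bottom of its chromosome.

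CHD7 RNA, from chr8:60678740-60868028, was listed on chromosome 8 alone, with 2 local, 44 cis and 0 trans connections in R320* and 2 local, 27 cis and 0 trans in WT. Its promoter element (chr8:60677711-60681352) scored 2.18 in R320* and 2.15 in WT. An enhancer inside the gene (chr8:60689196-60690830) scored 1.66 in R320* and 1.63 in WT. Both local contacts were listed in both genotypes with nearly equal scores, and 81.1% of all local connections were listed in both.

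In R320* the 3 highest CHD7 scores lay beyond the end of the gene at higher coordinates, and in WT high scores lay on both sides. A promoter of AC113143.3 (chr8:60876684-60877427) scored 2.85 in R320* and 2.62 in WT, the highest of the RNA in either genotype. An enhancer near CLVS1, a gene for a lipid-binding vesicle protein (chr8:61023797-61024156), scored 2.78 in R320* and 2.27 in WT. An enhancer near AC022182.2 (chr8:61003987-61006535) scored 2.37 in R320* and 2.21 in WT. These sites were already contacted in WT, and each had the higher score in R320*. The second highest score in WT was at a promoter of AC068389.2 (chr8:60660710-60661056), at lower coordinates than the gene, with 2.36 in R320* and 2.32 in WT. It was followed in WT by an enhancer near AC022182.2 (chr8:60981178-60982094), with 2.25 in R320* and 2.30 in WT.

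Over the 28 shared connections, CHD7 scores were higher in R320* at 25 and lower at 3, against 58.6% higher over all shared connections of the table. The median difference, R320* minus WT, was 0.183 (SD 0.200 over connections), against 0.0394 (SD 0.247) for the whole table. Of 1999 RNAs with at least 5 shared connections, CHD7 was in place 80 from the highest by this median. The largest positive difference was at an enhancer near CLVS1 (chr8:61032255-61032484), with 2.16 in R320* and 1.58 in WT. The largest negative difference was at an enhancer inside TOX, a gene for a nuclear HMG-box protein (chr8:58840893-58843344), with 1.25 in R320* and 1.43 in WT. No shared connection of any member differed by 1 unit or more, which 0.0998% of all shared connections did upward and 0.0749% downward. Nearby elements share fragments of the same RNA, so the 25 are not independent observations.

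The connections that CHD7 had in R320* alone lay mostly far from the gene. Within 1 Mb it had 24 connections in R320* and 24 in WT, and the log2 ratio there was 0.00. Beyond 1 Mb all 22 connections were listed in R320*, 17 of them in R320* alone and 5 in both. Over all RNAs listed in both genotypes 39.7% of such distant connections were in R320* only and 28.8% in both, and over the other RNAs of chromosome 8 the first share was 41.6%. Among all cis connections, 51.4% were in both genotypes, 26.4% in R320* alone and 22.1% in WT alone. The median distance of CHD7 contacts from the gene was 834 kb in R320* and 159 kb in WT.

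Some distant sites met in R320* alone lay beside or between sites met in both genotypes, and others lay in small groups or singly. Enhancers near NSMAF (1.30) and TOX (1.42 and 1.58) lay between shared sites at NSMAF and TOX. Further enhancers in R320* alone lay at FAM110B (1.23) and AC087664.2 (1.31). A promoter of SDCBP (1.39) lay beside a shared enhancer at SDCBP. There were also 2 enhancers near LYN, a SRC-family kinase gene (1.29 and 1.57), and 2 near ARMC1 (1.38 and 1.21). A group of 3 enhancers lay near AC092819.2 and UBXN2B (1.46, 1.29 and 1.53). Sites at MCM4 (1.28), CSPP1 (1.22) and TRAM1 (1.23) had no other CHD7 contact within 1 Mb. The farthest in R320* was an enhancer of SDC2, a cell-surface proteoglycan gene, at 35.7 Mb with a score of 1.23. The farthest in WT was an enhancer at SDCBP (chr8:58559543-58560534) at 2.12 Mb, with 1.86 in R320* and 1.57 in WT. Scores at the 18 sites listed in R320* alone ran from 1.21 to 1.58, with a median of 1.30, close to the minimum of the table. Of these 18 elements, 17 were listed in WT with other RNAs and so are part of the WT table. With a stricter minimum of 1.5, CHD7 had 27 connections in R320* and 22 in WT and its log2 ratio was 0.30, against 0.67 over all listed connections. At that minimum the ratio was -1.18 for EP400, from 11 in R320* and 25 in WT, and -0.48 for MED13L, from 38 and 53. The single site in WT alone, an enhancer near AC021393.1 (chr8:60160436-60161095), scored 1.21.

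**Figure D3:**
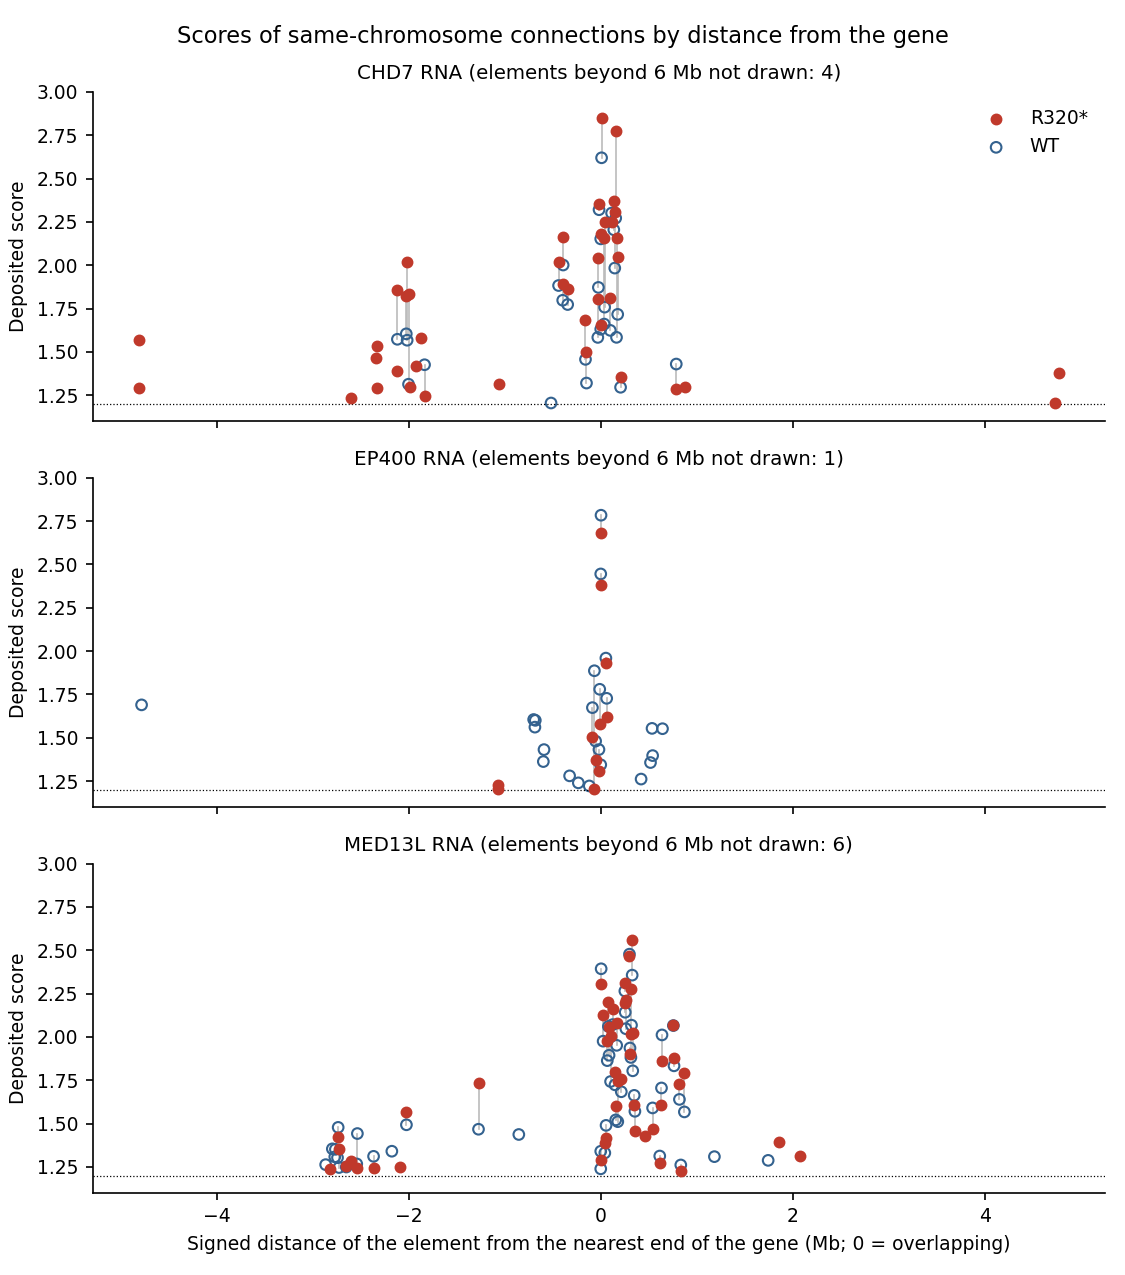
Deposited score (vertical axis) of same-chromosome connections against signed distance of the element from the nearest end of the gene, in Mb. R320* is in filled red and WT in open blue. The farthest elements are not drawn, and each panel title gives their number. Grey lines join the scores of 1 element and the dotted line is the minimum of 1.2. CHD7 has R320* points alone at many sites beyond 1 Mb, EP400 has WT points alone from 100 kb to 1 Mb, and MED13L points lie mostly on the side of higher coordinates.

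EP400 RNA, from chr12:131949942-132080460 near the end of the long arm, was listed at nearly all its near sites in both genotypes and at wider ones mostly in WT. It had 1 local, 10 cis and 6 trans connections in R320* and 2 local, 23 cis and 16 trans in WT. The enhancer inside the gene (chr12:131955567-131959820) scored 2.38 in R320* and 2.45 in WT. The promoter element (chr12:131947724-131951631) was not listed for EP400 RNA in R320* and scored 1.34 in WT. In R320* that promoter still met SFSWAP RNA, from a neighbouring splicing regulator gene, with 1.77 against 2.09 in WT. FBRSL1 (1.22) and ULK1 (1.29) met it in WT alone. EP400 and MED13L each had 1 of 2 local connections in both genotypes, against 81.1% over all RNAs. Over the other RNAs of chromosome 12 the share was 43.1%, with 143 of 262 local connections in WT alone. That set includes RNAs listed in WT alone.

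Within 100 kb, 9 of 10 EP400 connections were in both genotypes, close to the 95.2% of all RNAs listed in both. From 100 kb to 1 Mb, 0 of 13 were listed in R320* and 13 of 13 in WT. At that distance 68.3% of connections of all such RNAs were in both genotypes and 13.2% in WT only, and over the other RNAs of chromosome 12 the share in WT only was 22.9%. The 13 scores in WT ran from 1.22 to 1.61. They covered both sides of the gene, 8 below it, at LINC01257, LINC02415, LINC02370, AC117500.3, SFSWAP and MMP17, and 5 above it, at FBRSL1, LRCOL1, P2RX2 and PGAM5. Beyond 1 Mb, R320* listed a promoter and an enhancer at RAN (up to 1.23, 1.07 Mb away), and WT listed enhancers near AC079949.4 (1.69) and, 7.20 Mb away, near SCARB1 (1.43). The median distance of same-chromosome contacts was 53.5 kb in R320* and 324 kb in WT.

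The highest EP400 score on chromosome 12 belonged to a promoter of AC137590.2 (chr12:132083462-132086202), with 2.68 in R320* and 2.78 in WT. This element overlaps the start of EP400P1 (chr12:132084283-132126340), a pseudogene related in sequence to EP400, so reads may be shared between the loci and the value is uncertain. The enhancer inside the gene was next in both genotypes, ahead of an enhancer near DDX51, an RNA helicase gene, with 1.93 in R320* and 1.96 in WT. The 9 local and cis connections in both genotypes were all lower in R320*, and the 3 shared trans connections were all slightly higher. The largest negative difference was at an enhancer near ULK1, an autophagy kinase gene (chr12:131882971-131883596), with 1.21 in R320* and 1.89 in WT. Over all 12 the median difference was -0.106 (SD 0.198), in place 50 from the lowest of the 1999 RNAs.

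**Figure D4:**
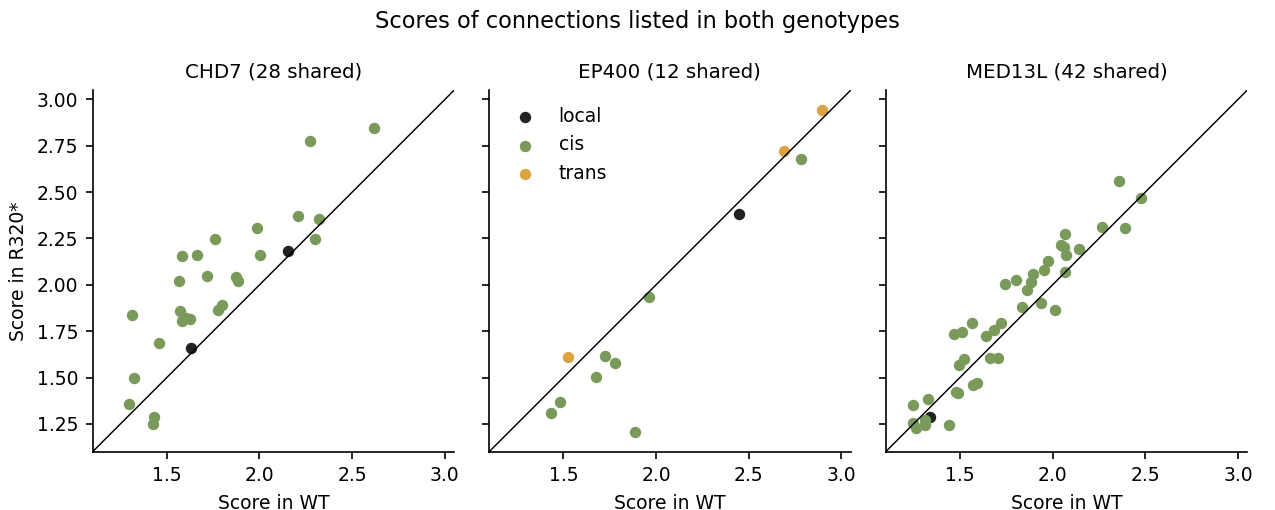
Score in R320* (vertical axis) against score in WT (horizontal axis) for each connection listed in both genotypes, coloured by type; the line marks equal scores. CHD7 has 25 of 28 points above the line, EP400 9 of 12 below it, and MED13L 27 of 42 above it.

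MED13L RNA, from chr12:115958576-116277693, had similar same-chromosome numbers in both genotypes and fewer trans connections in R320*. It had 1 local, 50 cis and 10 trans connections in R320* and 2 local, 54 cis and 30 trans in WT. Without the trans part the log2 ratio was -0.13, from 51 in R320* and 56 in WT. The enhancer inside the gene (chr12:116170887-116177730) scored 1.29 in R320* and 1.34 in WT. The promoter element (chr12:116274920-116278811) was not listed in R320* and scored 1.24 in WT, just above the minimum. The same promoter met 0 RNAs in R320*, and in WT it also met FBXW8 RNA, from a ubiquitin ligase subunit gene, with 1.73.

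Within 1 Mb, MED13L contacts lay almost wholly beyond its 5′ end. The gene is on the minus strand, so this is the side of higher coordinates. Of 37 elements in the table within 1 Mb on that side, its RNA met 35, with 35 in R320* and 34 in WT. On the other side the table held 2 elements within 1 Mb, and its RNA met 0 in R320* and 1 in WT. The top score in R320* was at an enhancer near AC125603.3 (chr12:116605107-116606097), with 2.56 in R320* and 2.36 in WT. The top score in WT was at an enhancer near MAP1LC3B2, an autophagy gene (chr12:116576777-116577729), with 2.47 in R320* and 2.48 in WT. An enhancer beyond the 5′ end (chr12:116281941-116283818) scored 2.31 in R320* and 2.39 in WT, and one near LINC00173 (chr12:116528859-116529447) 2.31 and 2.26.

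From 100 kb to 1 Mb, 27 of 29 MED13L connections were in both genotypes, at the distance where EP400 had 0 of 13. Beyond 1 Mb, 7 of 27 were in both, 8 were listed in R320* alone and 12 in WT alone, a share of 44.4% against 45.3% for the other RNAs of chromosome 12. The median difference over the 42 shared connections was 0.0634 (SD 0.121), with 27 higher in R320* and 15 lower, near the 58.6% of the whole table. The largest positive difference was at a promoter of TBX3, a T-box factor gene (chr12:114683201-114685260), with 1.74 in R320* and 1.47 in WT. The largest negative difference was at a promoter of SDS, a serine dehydratase gene (chr12:113421895-113423614), with 1.25 in R320* and 1.44 in WT. The farthest contacts were an enhancer of ANKS1B at 17.2 Mb in R320* (1.21) and a promoter of PUS1 at 15.6 Mb in WT (1.21).

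On other chromosomes, EP400 met 7 regions and MED13L 22 when elements within 1 Mb were merged. EP400 met 2 regions in R320* and 6 in WT, with 1 in both. MED13L met 5 regions in R320* and 17 in WT, with 0 in both, and 0 of its 40 trans connections were shared. Over all RNAs, 11.5% of trans connections were in both genotypes, with 41.5% listed in R320* alone and 47.0% in WT alone. The other RNAs of chromosome 12 together had 41 trans connections in R320* and 101 in WT, beside 10 and 30 for MED13L alone. Of the 134 trans connections of those other RNAs, 5.97% were in both genotypes.

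The region that EP400 met in both genotypes was 11q13 at MALAT1, the nuclear speckle RNA gene. Its MALAT1 promoter element (chr11:65495438-65506843) scored 2.94 in R320* and 2.90 in WT, the highest EP400 score anywhere. The enhancer next to it (chr11:65510456-65513905) scored 2.72 in R320* and 2.69 in WT, and a promoter of AP000769.3 scored 1.61 and 1.52. For MED13L neither was listed in R320*, and the same promoter and enhancer scored 2.21 and 2.05 in WT. These are among the most widely met elements: with all RNAs counted, the promoter met 187 in R320* and 190 in WT.

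The remaining EP400 trans sites were each in 1 genotype. In R320* they were 3 elements at LINC00656 on chromosome 20, scoring up to 2.04. In WT they were 4 elements at AC005081.1 and CLIP2 on chromosome 7 (up to 2.51), 4 at NAV1 (up to 2.21) and 2 at GPATCH4 (up to 2.11) on chromosome 1, 2 near GOLGA6L10 on chromosome 15 (up to 1.499) and 1 at OSTM1 on chromosome 6 (1.60). All 13 trans elements met in WT alone were listed in R320* with other RNAs, while 1 of the 3 met in R320* alone was listed in WT with other RNAs. Neighbouring elements moved together, so each group is nearer to 1 observation than to several.

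MED13L trans sites were scattered more widely, over 5 chromosomes in R320* and 10 in WT. In R320* the highest were at TRIM4 on chromosome 7 (2.20), SLC37A1 on chromosome 21 (2.19) and IFT172 on chromosome 2 (2.17). In WT the highest were near AP003115.1 on chromosome 8 (2.26), at the MALAT1 promoter (2.21) and at ARVCF on chromosome 22 (2.21). The median trans score was 1.98 in R320* and 1.78 in WT, beside 1.73 and 1.58 for all its listed cis contacts. A pair of elements at RSPH14 on chromosome 22 (2.03 and 1.36, WT alone) lies next to BCR and met 48 other RNAs in R320* and 42 in WT. Of the 30 trans elements met in WT alone, 29 were listed in R320* with other RNAs. The number was lower for its cis elements met in WT alone, 8 of 13, and 0 of 1 for the local one. Of the elements met in R320* alone, 8 of 10 in trans and 6 of 9 in cis were listed in WT with other RNAs.

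**Figure D5:**
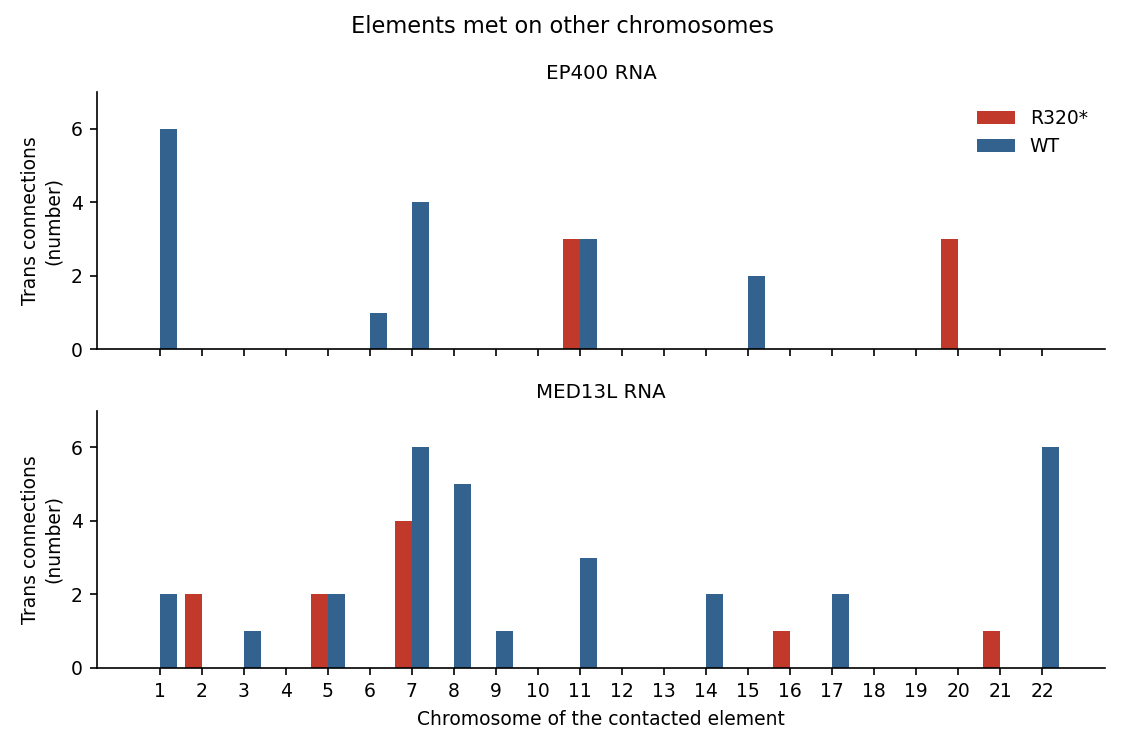
Number of trans connections (vertical axis) of EP400 and MED13L RNA by chromosome of the contacted element, R320* in red and WT in blue. EP400 has equal bars on chromosome 11, where MALAT1 lies, and MED13L has both colours on chromosomes 5 and 7 alone.

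EP400 and MED13L met 4 elements in common, which is 8.70% of the EP400 list and 3.81% of the MED13L list: the MALAT1 pair, an enhancer near AC079949.4 and the PUS1 promoter. At AC079949.4 (chr12:127166341-127167034) EP400 scored 1.69 and MED13L 2.09, both in WT alone. CHD7 shared 0 elements with either.

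Likeness was taken as the number of elements met by both RNAs as a share of those met by either, over 2390 other RNAs with at least 10 elements. All of the nearest RNAs came from genes within 5 Mb. For CHD7 they were RAB2A (55.6%), CA8 (48.8%) and LINC01301 (37.5%), for EP400 SFSWAP (29.7%), FBRSL1 (15.3%) and POLE (13.0%), and for MED13L FBXW8 (28.1%), TPCN1 (9.32%) and TAOK3 (6.98%).

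At the elements they share, these neighbours did not always go the way of the member. All 28 elements that CHD7 met in both genotypes were met in both by RAB2A too, which had 45 connections in R320* and 45 in WT. CA8 had 61 and 54, and met 10 of the 18 elements that CHD7 met in R320* alone, 5 of them in R320* alone. Of the 29 elements that EP400 met in WT alone, SFSWAP met 11, of which 9 were in both genotypes and 2 in WT alone; SFSWAP had 41 connections in R320* and 49 in WT. Those 9 sites were still listed with SFSWAP RNA in R320*. FBXW8 had 22 and 40, and of the 42 elements that MED13L met in both genotypes FBXW8 met 28, of which 15 were in both and 12 in WT alone. POLE (15) and TAOK3 (33) were listed in WT alone. Median score differences, R320* minus WT, were also taken over each RNA's own connections listed in both genotypes. They were 0.183 for CHD7, beside 0.152 for CA8, 0.072 for RAB2A and 0.055 for LINC01301. For EP400 the value was -0.106, beside -0.091 for SFSWAP and -0.033 for FBRSL1. For MED13L it was 0.063, beside 0.093 for TPCN1 and -0.032 for FBXW8.

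Among RNAs listed in both genotypes, those within 5 Mb of each gene leaned the way of its chromosome. Around CHD7, 7 of 10 had more connections in R320* and 1 fewer, and a further RNA, PLAG1, was listed in WT alone (12). Around EP400, 2 of 3 had fewer and 0 more, and around MED13L 7 of 8 had fewer and 0 more; a further 4 and 8 RNAs there were listed in WT alone.

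The elements whose nearest gene is a member were also counted as targets. For scale, the whole table held 33948 elements, with 84992 connections in R320* and 82454 in WT. The 7 elements at CHD7 had 17 connections in R320* and 13 in WT, the 3 at EP400 had 4 and 8, and the 6 at MED13L had 4 and 12. The CHD7 promoter met 6 RNAs in R320* and 5 in WT, with CHD7, CA8, RAB2A and ASPH in both. RAB2A scored highest there in R320*, with 2.37 against 2.04 in WT.

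Other genes of the same families and complexes were counted in the same way. Of 28 remodeller ATPases of the SNF2 family looked for, 15 were listed as RNAs; 11 of the 13 in both genotypes had more connections in R320* and 2 fewer, CHD7 and EP400 included. The median log2 ratio was 0.18, against 0.09 for all 2137 RNAs in both genotypes. Of those 2137, 1244 had more connections in R320* and 719 fewer. The CHD relatives CHD1 (36 in R320* and 32 in WT), CHD2 (30 and 26), CHD6 (31 and 33) and CHD9 (36 and 31) lay nearer to equality than CHD7. SMARCA4, the BRG1 ATPase of BAF complexes, had 38 and 35, and INO80 42 and 37. HELLS (17) was listed in R320* alone and SMARCA2 (15) in WT alone.

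Of 18 genes looked for from the TIP60/p400 complex and its relatives, the pseudogene EP400P1 among them, 3 were listed. EPC2, an enhancer of polycomb homologue, had 39 connections in R320* and 24 in WT, MBTD1 50 and 38, and the scaffold gene TRRAP 16 and 20. These partners of EP400 lie on other chromosomes, and 1 of the 3 went the way of EP400. Of 49 partner subunits of other remodellers, 16 were listed, and 10 of 14 in both genotypes had more in R320* and 4 fewer. Their median log2 ratio was 0.090, near the 0.093 of all RNAs in both genotypes. ARID2, a PBAF subunit gene on chromosome 12, was listed in WT alone (42), and MTA3, of the NuRD complex, in R320* alone (41).

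Of 33 Mediator genes, 5 were listed, all in both genotypes, with 1 higher in number in R320* and 4 lower and a median log2 ratio of -0.09. MED13, the paralogue of MED13L on chromosome 17, had 46 connections in R320* and 49 in WT, all on its own chromosome. CDK19, a kinase of the same module, had 51 and 60, MED27 15 and 16, and MED15 19 and 15. MED13L had 10 trans connections in R320* and 30 in WT, while MED13, CDK19 and MED27 had 0 in either genotype. MED15 had 6 in R320* and 1 in WT, the opposite direction to MED13L on few connections. Over the 4 lists, EP400 was the only RNA with at least 25 connections on average past a 2-fold difference.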

How the data were processed

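K562 cells were assayed by GRID-seq in 2 libraries per genotype. The submitters' processing notes name cutadapt 1.12, BWA, bedtools and the hg38 build. The authors deposited a score per connection and genotype, pooled over libraries, and a difference that equals R320* minus WT within 1e-05. The way the score was computed, its scale and the sequencing depth are unknown here. No count of reads was used.

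From the deposited scores, connections were counted by type, distance and genotype with Python 3.11.15 and pandas 2.3.3. Element starts were taken as 0-based and are printed 1-based. Distance ran from the nearest end of the RefSeq gene (GRCh38.p14, which shares hg38 coordinates). Ratios used RNAs listed in both genotypes that averaged at least 25 connections. A log2 ratio or score difference of 1 was the size called. Position by chromosome leaves out RNAs with trans connections alone. The functions were tested on simulated data.

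Named connections were every local one, the 3 highest scores per genotype, the largest rise and fall, and the farthest; others were chosen after their values were seen. The members and gene lists were chosen with earlier results of these data known. Alternatives were a score minimum of 1.5, merging within 1 Mb, subsets by type and element, and centring.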

Additional observations from a re-analysis of the deposited data

How the results depend on the processing

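The values are pooled by genotype, so no replicate could be left out, and both alternatives that need values per library were not run. No paired analysis was possible because the deposited columns carry 1 value per genotype and no replicate number. A move was judged against a 95% binomial interval of the R320* share for ratios and against 1 SD over connections for score differences. That interval treats connections as independent, which neighbouring elements are not, and it is wide, so a value inside it is no sign of stability. The ratio of EP400 was negative under all 8 alternatives, from -1.69 with enhancers alone to -0.58 with promoters alone, where it was no longer past 2-fold. With elements within 1 Mb merged, the log2 ratio was 1.81 for CHD7 (7 regions in R320*, 2 in WT) and -1.07 for MED13L (10 and 21), past 2-fold in both, on few regions. With elements within 1 Mb of the gene alone, an alternative chosen after seeing the data, it was 0.00 for CHD7, since this removes its distant sites, and -0.04 for MED13L. The other ratios ran from 0.29 to 0.81 for CHD7, where promoters alone and a minimum of 1.5 (0.30) gave the low end, and from -0.59 to -0.13 for MED13L. Score differences kept their sign under all 5 alternatives, from 0.124 to 0.209 for CHD7, -0.145 to -0.0649 for EP400 and 0.0239 to 0.0875 for MED13L. Leaving out trans connections could not move the CHD7 ratio or the CHD7 and MED13L score differences, which hold no trans connection. Unknown depth limits what a score of 0 can say, most of all for sites near 1.2.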
